A study of Homo sapiens with 15 samples.

Results

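The transcriptome of human retinal organoids (ROs) after 150 days of differentiation was set beside that of the undifferentiated human induced pluripotent stem cells (hiPSCs) from which they were grown. All libraries that the sample labels place in these 2 groups were taken, 3 of the neural retina (NR) layers of D150-ROs and 3 of hiPSCs, which makes 6 of the 15 samples of the series. Both groups derive from BC1-GFP, a human iPSC line carrying a green fluorescent reporter, with no edited gene or drug treatment that separates them. The hiPSCs were grown in mTeSR1 medium on Matrigel, and the D150-ROs in retinal media containing serum and taurine, with 5 ROs pooled for each experiment, so the groups differ in medium and culture form as well as in cell type. The methods and the sample labels give 3 independent experiments for each group, and the description of the whole series gives 2. Where the libraries of a group are not separate cultures, p-values measure only the spread between these libraries. The series description also names a second sequencing company and a batch correction without saying which libraries they concern, and such a batch cannot be told apart from the group. The NR layers of 3 D70-ROs from the same line are given beside the D150 values where the stage matters.

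A pluripotent stem cell keeps its state through a small circuit of transcription factors, divides quickly, and draws heavily on glycolysis. A retina contains rod and cone photoreceptors, which capture light in a modified cilium called the outer segment, interneurons (bipolar, amacrine and horizontal cells) that pass the signal on, ganglion cells that project to the brain, and Müller glia cells (MGCs) that span the tissue. Retinal progenitor cells (RPCs) give rise to all of these neurons and to MGCs. Each library is a mixture of cells, so fewer cells of a type and less RNA per cell cannot be told apart.

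The authors deposited 2 values for each of 19684 genes and each library. An expected count estimates how many reads a gene produced, and FPKM is that number scaled for transcript length and sequencing depth. The 6 libraries held between 15448141 and 20398755 expected counts, and between 11986 and 12643 genes reached 1 FPKM in a library. Genes with at least 1 FPKM in at least 3 of the 6 libraries were tested, which left 13344. A gene was called when it differed by 2-fold or more with an adjusted p below 0.05 in the quasi-likelihood test of edgeR. By these limits 7842 genes (58.8% of those tested) differed, of which 3977 (29.8%) were higher in D150-ROs and 3865 (29.0%) were lower. A gene near 0 in 1 group could enter the test only by reaching 1 FPKM in every library of the other, so such a gene had to differ, and counts and medians over tested list members are descriptions that the filter in part sets. Counts without the filter are given for the eye-field, phototransduction, outer segment, MGC, interneuron and ganglion cell lists, and for some lists of other cells. So many genes differed that a share of a gene list close to these percentages says nothing particular about the list. The median log2 fold change over all tested genes was -0.02 with the TMM factors of edgeR and 0.34 when library totals alone set the scale, with which 4867 genes were higher and 3047 lower. A log2 fold change can therefore lie about that far below the ratio of the FPKM values printed beside it.

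The differences were large. At least 16-fold differences were found for 722 higher and 620 lower genes, and at least 64-fold differences for 289 and 261. At the same time 10716 genes stood at 1 FPKM or more in all 6 libraries. A set of 172 genes was below 0.1 FPKM in every hiPSC library and at 1 FPKM or more in every D150-RO library, and 146 genes showed the opposite pattern. Only 11 of the former and 14 of the latter reached 10 FPKM in every library of the higher group.

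Calls followed gene length. Among the shortest quartile of tested genes, with effective lengths of 207 to 1801 bases, 46.4% were lower in D150-ROs and 14.5% higher. Among the longest quartile, from 4193 bases upwards, 47.1% were higher and 14.3% lower. The median log2 fold change went from -0.84 in the shortest quartile through -0.22 and 0.19 to 0.87 in the longest. Ribosomal and mitochondrial proteins are encoded by short transcripts and many synaptic and ciliary proteins by long ones, and a length effect of library preparation cannot be told apart here from a difference between the cells. Counts with a smooth length trend removed are therefore given below for the lists in which they moved most. For these only the fold changes were shifted. The adjusted p of the unshifted fit was kept, so these counts are not a new test.

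**Figure D1:**
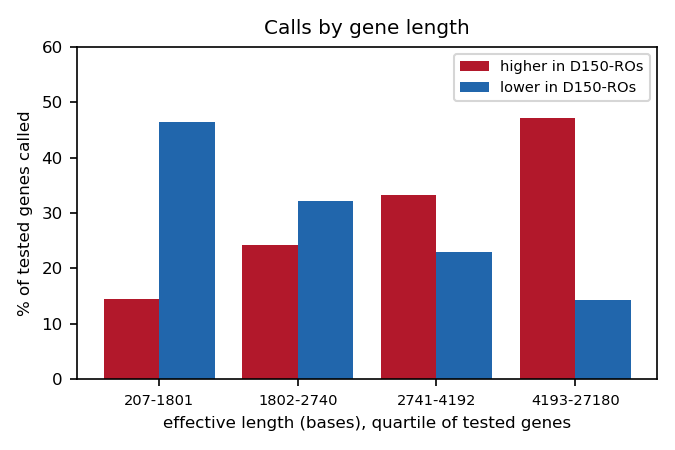
Share of tested genes called higher (red) or lower (blue) in D150-ROs, on the vertical axis in percent, for the quartiles of effective transcript length in bases on the horizontal axis. The lower calls decline from 46.4% to 14.3% and the higher calls climb from 14.5% to 47.1% from the shortest to the longest quartile.

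**Figure D2:**
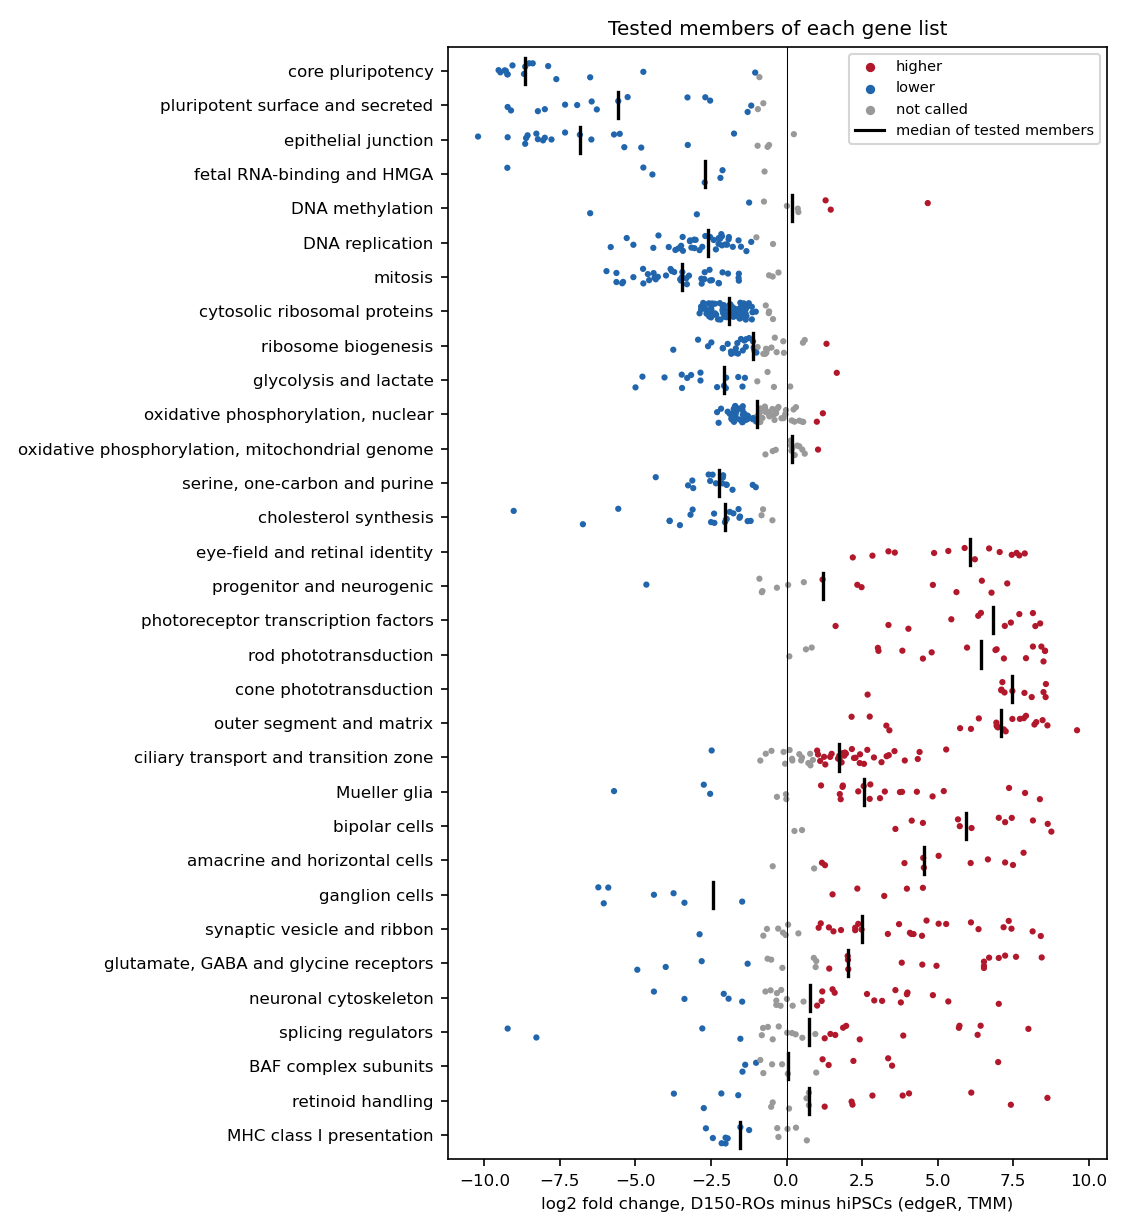
Each point is a tested gene of the list named on the left, placed on the horizontal axis by its log2 fold change (D150-ROs minus hiPSCs), in red where called higher, in blue where called lower and in grey where not called, with a black bar at the list's median. Pluripotency and epithelial lists lie far to the left (medians -8.65 and -6.84), proliferation and ribosomal lists less far (-3.45 for mitosis, -1.90 for ribosomal proteins), and photoreceptor lists far to the right (6.44 to 7.47).

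Sequences upstream of genes of a gained and a lowered class, photoreceptor and mitotic genes, are shown because most tested members of each class moved in the same direction. For photoreceptor genes, the promoters of the 3 called genes with the highest FPKM in D150-ROs among those holding TAATCC, the homeodomain element bound by CRX and OTX2, are given. For mitotic genes, those of the 3 called genes with the highest FPKM in hiPSCs among those holding TTTGAA, the core of the cell cycle homology region, are given. Genes on chromosomes 8 and Y were left out before both choices, whatever their FPKM. Each run is the 250 bases before the RefSeq start site (GRCh38.p14), read 5′ to 3′ on the gene's own strand, with the searched element and its reverse complement in capitals. RefSeq start sites can lie inside the wider gene bounds of GENCODE v29. The regions are chr6:42173114-42173363 (plus strand) for GUCA1A, chr19:47821687-47821936 (plus) for CRX, chr16:57971129-57971378 (minus) for CNGB1, chr1:43358731-43358980 (plus) for CDC20, chr16:23678639-23678888 (plus) for PLK1 and chr12:6493852-6494101 (plus) for NCAPD2.
GUCA1A: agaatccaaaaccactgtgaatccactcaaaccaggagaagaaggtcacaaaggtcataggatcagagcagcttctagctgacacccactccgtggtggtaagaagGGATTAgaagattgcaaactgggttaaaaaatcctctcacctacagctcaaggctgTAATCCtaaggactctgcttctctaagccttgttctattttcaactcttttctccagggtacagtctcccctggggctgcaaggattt
CRX: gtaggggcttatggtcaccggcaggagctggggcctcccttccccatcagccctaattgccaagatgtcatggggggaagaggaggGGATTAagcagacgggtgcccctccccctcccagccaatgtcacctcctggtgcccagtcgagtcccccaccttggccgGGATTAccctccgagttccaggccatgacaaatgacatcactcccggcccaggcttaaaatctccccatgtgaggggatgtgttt
CNGB1: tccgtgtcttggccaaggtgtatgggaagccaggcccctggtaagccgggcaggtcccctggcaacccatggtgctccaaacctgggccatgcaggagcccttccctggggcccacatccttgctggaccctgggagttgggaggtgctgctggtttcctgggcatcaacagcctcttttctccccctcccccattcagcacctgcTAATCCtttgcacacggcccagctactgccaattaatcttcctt
CDC20: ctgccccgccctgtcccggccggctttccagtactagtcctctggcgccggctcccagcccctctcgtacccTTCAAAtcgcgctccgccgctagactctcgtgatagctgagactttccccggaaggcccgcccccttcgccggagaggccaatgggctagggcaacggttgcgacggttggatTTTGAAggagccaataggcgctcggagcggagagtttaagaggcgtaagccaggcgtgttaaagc
PLK1: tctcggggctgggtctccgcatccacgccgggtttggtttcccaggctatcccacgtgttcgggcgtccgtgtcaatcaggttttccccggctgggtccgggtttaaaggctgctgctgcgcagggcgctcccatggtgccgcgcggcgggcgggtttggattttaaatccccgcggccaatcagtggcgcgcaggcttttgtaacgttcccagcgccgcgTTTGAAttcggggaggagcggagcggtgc
NCAPD2: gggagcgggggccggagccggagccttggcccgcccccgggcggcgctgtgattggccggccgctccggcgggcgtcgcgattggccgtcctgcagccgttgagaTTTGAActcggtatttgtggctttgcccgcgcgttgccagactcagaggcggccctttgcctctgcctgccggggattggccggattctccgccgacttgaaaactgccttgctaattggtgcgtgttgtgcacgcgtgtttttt

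Counted from the start site, TAATCC began at -144 and -88 in GUCA1A, at -164 and -85 in CRX and at -44 in CNGB1, and TTTGAA began at -178 and -65 in CDC20, at -29 in PLK1 and at -145 in NCAPD2. Both strands were searched. By their letters TAATCC and CCAAT can overlap at their ends, and TTTGAA and CCAAT can share an end letter. Of the 42 mitotic genes 35 had an entry in the promoter table. TTTGAA lay in 19 of them (54.3%) and CCAAT, the box bound by NF-Y, in 26 (74.3%), against 13.6% and 33.0% of all 27195 promoters of the table. Of the 40 DNA replication genes 34 had an entry, of which 1 (2.94%) held TTTGAA and 20 (58.8%) held CCAAT. Only 56 of the 73 photoreceptor genes had an entry, too small a part of that class for a share over it, so none is given for TAATCC. The octamer ATGCAAAT bound by POU factors was also searched. Of the 17 core pluripotency genes only 12 had an entry, again too small a part for a share. A match describes letters and not a bound site.

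Pluripotency genes were the most strongly lowered class. Of 17 core pluripotency genes, all of them tested, 16 were lower in D150-ROs and none higher, with a median log2 fold change of -8.65. POU5F1 (chr6:31164337-31180731, minus strand, coordinates from GENCODE v29 on GRCh38), which encodes the pluripotency factor OCT4, stood at 2006, 1924 and 2150 FPKM in the hiPSC libraries and at 3.88, 5.16 and 3.47 in the D150-RO libraries. Every hiPSC library lay far above every D150-RO library, and the log2 fold change was -9.29 (SE 0.13, adjusted p = 1.42e-12). LIN28A, an RNA-binding protein that blocks let-7 maturation, went from 697 ± 63.8 to 1.47 ± 0.307 FPKM (SD, n = 3), and its paralog LIN28B from 22.0 ± 3.69 to 1.22 ± 0.341. NANOG, a further factor of the circuit, measured 40.4, 39.3 and 46.1 FPKM in hiPSCs and 0.20, 0.07 and 0.07 in D150-ROs. Its retrogene NANOGP8, listed at 14.8 FPKM in hiPSCs, is nearly identical in sequence, so reads may be split between them. Of 7 fetal RNA-binding and HMGA genes 6 were lower and 0 higher. HMGA1, an architectural chromatin protein, fell from 2307 to 136 FPKM on average. DPPA4, PRDM14 and ZSCAN10, further core genes, fell by 9.53, 9.47 and 9.33 on the log2 scale.

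SOX2 was the exception in the core list. This factor serves both stem cells and neural progenitors. It measured 108, 92.1 and 105 FPKM in hiPSCs and 67.2, 77.0 and 65.4 in D150-ROs, groups that do not overlap but whose log2 fold change of -0.90 (SE 0.09) missed the 2-fold limit. The D70-ROs had 70.3 FPKM.

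The cell surface changed with the circuit. Of the 18 surface and secreted markers of pluripotent cells 17 were tested, and 15 were lower and 0 higher. TDGF1, a co-receptor for Nodal, went from 254 ± 31.0 to 0.543 ± 0.236 FPKM. GDF3, a TGF-beta family ligand, had 1 count in the D150-RO libraries together and a 95% counting interval of 137 to 30400 for its fold difference. Of the 24 epithelial junction genes 23 were tested, and 19 were lower and 0 higher, with a median of -6.84, and 22 were lower with the length trend removed. CDH1, the epithelial cadherin, measured 133, 124 and 104 FPKM in hiPSCs and 0.71, 0.46 and 0.85 in D150-ROs. CDH2, the neural cadherin, moved the other way, from 8.93, 9.01 and 9.14 to 116, 129 and 115 FPKM, and its share of the summed FPKM of the 2 cadherins went from 7.06% to 99.4%. CLDN6, a tight junction claudin, fell from 622 ± 47.2 to 2.92 ± 0.15 FPKM. ESRP1 and ESRP2, the epithelial splicing regulators, fell by 9.23 and 8.28 on the log2 scale.

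The 10 largest falls among genes at 10 FPKM or more in hiPSCs included 3 with no count in any D150-RO library. TMEM125, a transmembrane protein gene, was at least 408-fold lower, HES3, a relative of the Notch effector HES1, at least 317-fold, and NTS, the precursor of neurotensin, at least 280-fold, each against 3 counts over the group. ST14, the membrane protease matriptase, had 3 counts in D150-ROs and an interval of 455 to 6460 for its fold difference. VRTN, EPHA1 and CYP2S1 fell by 9.85, 9.80 and 9.64 on the log2 scale.

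Among enzymes and readers of DNA methylation, 10 of 11 listed genes were tested and 3 were higher and 3 lower, shares close to those over all tested genes. With the length trend removed 1 was higher and 3 lower, and the median went from 0.19 to -0.62. DNMT3B, the de novo methyltransferase typical of pluripotent cells, measured 399, 442 and 395 FPKM in hiPSCs and 7.42, 6.20 and 6.56 in D150-ROs. DNMT3A, its paralog, measured 36.4, 36.9 and 35.5 and then 33.4, 30.9 and 31.5 FPKM and was not called (log2 fold change 0.39, and -0.18 on log2(FPKM + 1)). DNMT3A thus held 8.10% ± 0.352 of the summed FPKM of the pair in hiPSCs, 70.0% at D70 and 82.6% ± 0.759 at D150. TET2, a dioxygenase that oxidizes 5-methylcytosine, rose from 0.283 ± 0.0493 to 9.75 ± 0.228 FPKM, a log2 fold change of 4.67 (SE 0.13, adjusted p = 1.37e-11). It also differed between the organoid stages, from 2.85 FPKM at D70 (log2 difference 1.54, adjusted p = 1.22e-05). TET1 stood at a log2 fold change of 0.01, and at -1.51 with the length trend removed.

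Proliferation genes were lower almost throughout. Of 40 DNA replication genes, 38 were lower and 0 higher (median -2.61), and of 42 mitotic genes, 39 were lower and 0 higher (median -3.45). CDC20, an activator of the anaphase-promoting complex, measured 192, 208 and 195 FPKM in hiPSCs and 4.52, 6.21 and 7.20 in D150-ROs, a log2 fold change of -5.41 (SE 0.15, adjusted p = 1.39e-11). AURKB, a kinase of chromosome segregation, fell by 5.96 and PLK1, a kinase of mitotic entry, by 5.63 on the log2 scale. Of the replication genes, TK1, which makes thymidine phosphate, fell by 5.82 and CDT1, which licenses replication origins, by 5.29. MCM2, a subunit of the replicative helicase, went from 107 ± 7.02 to 14.8 ± 1.52 FPKM. All libraries of D150-ROs lay below all libraries of hiPSCs for each of these genes.

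The size of the fall differed among division genes. MKI67, the common marker of cycling cells, measured 18.6, 17.2 and 13.6 FPKM in hiPSCs and 4.31, 5.71 and 6.58 in D150-ROs, a log2 fold change of -1.94 (SE 0.16). TOP2A, a topoisomerase of dividing cells, measured 50.3, 33.3 and 63.7 and then 10.1, 15.4 and 14.4 FPKM. ASPM, CENPF and CENPE, large proteins of the spindle and kinetochore, were the 3 mitotic genes not called, with log2 fold changes of -0.46, -0.58 and -0.27 and overlapping groups. Their transcripts are long, and with the length trend removed CENPF came to -2.02.

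Protein synthesis genes made up much of the hiPSC transcriptome. Of 79 cytosolic ribosomal protein genes 75 were lower in D150-ROs and 0 higher, with a median of -1.90, and their share of all counts went from between 7.09% and 7.72% to between 2.21% and 2.54%. With the length trend removed, 26 were lower and the median was -0.77. RPS2, a small-subunit protein, measured 5197, 5011 and 5166 FPKM in hiPSCs and 1054, 1034 and 896 in D150-ROs, and RPLP0, a large-subunit stalk protein, 3678, 3534 and 3774 and then 839, 833 and 813. EEF1A1, the elongation factor that was the most abundant gene in hiPSCs, fell from 7578 ± 1262 to 3812 ± 221 FPKM (log2 fold change -1.37), a call lost with limma on log2(FPKM + 1) at -0.98. The D70-ROs did not lie between the groups here, since their summed ribosomal FPKM averaged 153180, above the 92093 of hiPSCs and the 29808 of D150-ROs. Many ribosomal protein genes have processed pseudogenes to which reads may be assigned. Of 39 ribosome biogenesis genes 24 were lower and 1 higher, beside calls for 58.8% of all tested genes. On log2(FPKM + 1) 15 were lower.

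Energy metabolism moved by pathway. Of 21 glycolysis and lactate genes 16 were lower and 1 higher, and the list's share of counts went from between 3.77% and 4.02% to between 0.882% and 0.912%. LDHA, the subunit of lactate dehydrogenase that favours lactate production, measured 1788, 1644 and 1931 FPKM in hiPSCs and 72.4, 84.9 and 73.7 in D150-ROs, a log2 fold change of -4.77 (SE 0.11, adjusted p = 3.83e-12). SLC2A3, a high-affinity glucose transporter, fell by 5.00 on the log2 scale, and SLC16A3, a lactate exporter, by 4.04. The exception was ENO2, the neuronal enolase, which rose from 98.7 ± 3.70 to 400 ± 36.0 FPKM (log2 fold change 1.66) while its paralog ENO1 fell from 3302 ± 71.0 to 475 ± 15.6. ENO2 thereby went from 2.90% ± 0.0459 of the summed FPKM of the pair to 45.7% ± 2.44.

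Of 71 nuclear genes of oxidative phosphorylation 35 were lower, 2 higher and 34 not called, beside calls for 58.8% of all tested genes. With the length trend removed 6 were lower and 3 higher, and the median went from -0.98 to -0.03. Of the 13 protein-coding genes of the mitochondrial genome 1 was higher and 0 lower, with a median of 0.19. With the length trend removed the median was 1.37 and 3 were higher, a count limited by the adjusted p kept from the unshifted fit. MT-ND2, a complex I subunit, was the called member (log2 fold change 1.04). It measured 1635, 2162 and 1403 FPKM in hiPSCs and 4229, 4908 and 4606 in D150-ROs, and it missed the 2-fold limit at 0.90 without hiPSC replicate 3, 0.99 without hiPSC replicate 1 and 0.98 without D150-RO replicate 2. The mitochondrial genes together took between 2.40% and 3.97% of hiPSC counts and between 3.87% and 4.38% of D150-RO counts. They filled the 5 highest places of the D150-RO transcriptome, led by MT-CO1 at 6069 ± 597 FPKM.

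Biosynthetic pathways were lower as well. All 16 tested genes of serine, one-carbon and purine synthesis, of 18 listed, were called lower. PHGDH, the entry enzyme of serine synthesis, went from 350, 358 and 351 FPKM to 23.9, 23.0 and 21.4. Of 24 cholesterol genes 21 were lower and 0 higher, and 17 were lower with the length trend removed. SREBF2, the transcription factor that switches on the genes of this pathway, fell from 126 ± 12.4 to 39.4 ± 2.53 FPKM. The culture media differed between the groups, and the part of lipid or serine supply in these values was not tested.

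**Figure D3:**
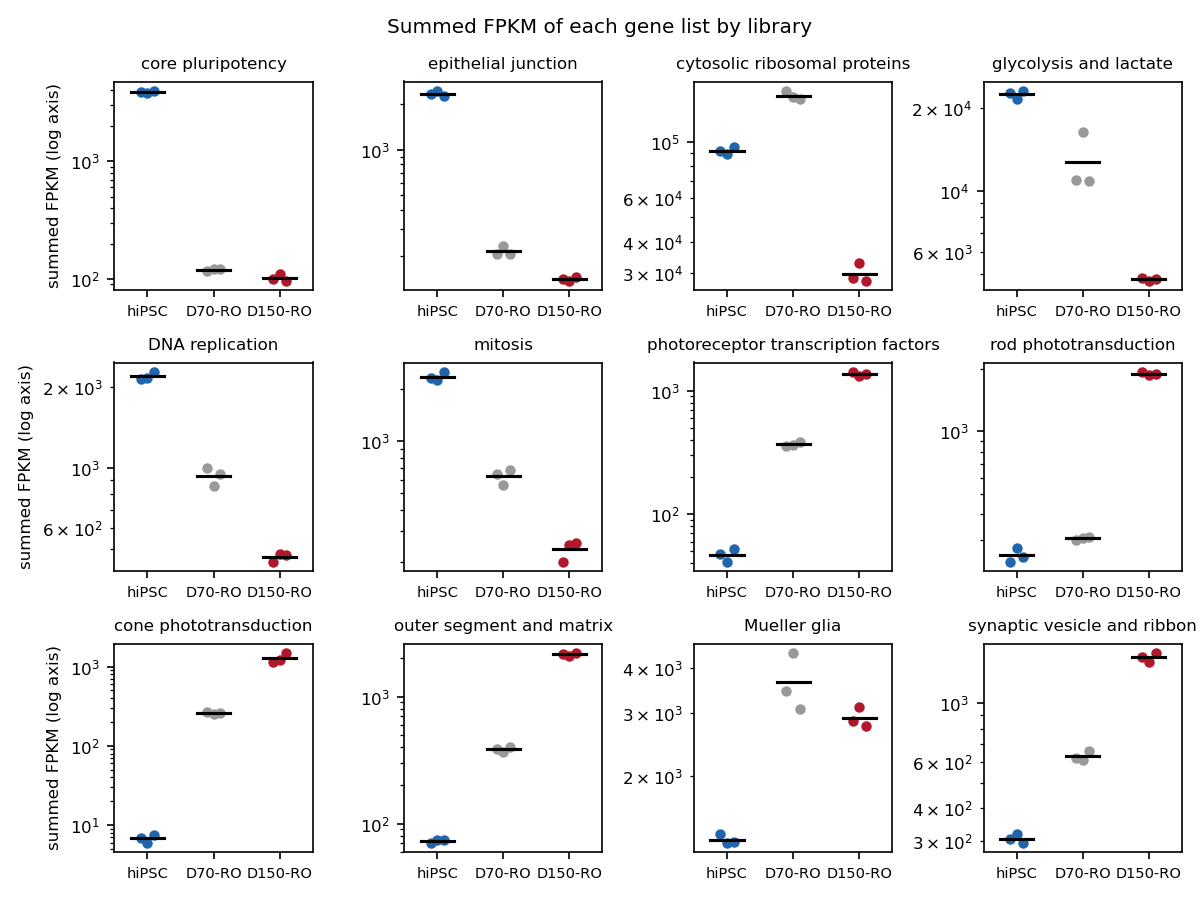
Summed FPKM of the members of 12 gene lists, on a log axis, in each library of hiPSCs (blue), D70-ROs (grey) and D150-ROs (red), with a bar at the mean of 3 libraries. Pluripotency, proliferation and glycolysis sums descend over the groups, the photoreceptor sums climb, and the ribosomal sum is highest in D70-ROs.

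Retinal identity genes were gained. Of 15 eye-field and retinal identity genes 14 were tested and 14 were higher in D150-ROs, with a median log2 fold change of 6.06, and without the filter 15 of 15 were higher with a median of 5.90. PAX6, a master factor of eye development, measured 1.64, 1.42 and 2.18 FPKM in hiPSCs and 167, 176 and 135 in D150-ROs. RAX, which marks RPCs, rose from 0.50 ± 0.139 to 76.5 ± 5.08 FPKM. TBX2, a T-box factor of the dorsal eye, had the largest fitted rise of the list, 7.88 on the log2 scale. Several of these factors had been higher at D70, with 362 FPKM for PAX6 and 176 for RAX, and both were lower at D150 than at D70 (log2 differences of -1.31 and -1.41, adjusted p = 1.16e-05 and 8.69e-06).

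The progenitor and neurogenic list was mixed, with 8 of 15 tested genes higher and 1 lower. Calls in it were about as frequent as the 58.8% over all tested genes, of which 29.8% were higher and 29.0% lower. FGF19, a growth factor of the early eye, was the lower member, at 7.63 ± 1.53 FPKM in hiPSCs and 0.387 ± 0.117 in D150-ROs, with 19.2 at D70. HES1, a Notch effector, measured 17.3 and 17.9 FPKM on average in the groups of this comparison and 61.7 in D70-ROs, and its log2 fold change of -0.32 turned to 0.04 with library totals.

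Photoreceptor genes showed the largest gains. All 12 photoreceptor transcription factors were higher, with a median of 6.83. CRX (chr19:47819779-47843330, plus strand), the homeodomain factor shared by rods and cones, measured 0.49, 0.51 and 0.62 FPKM in hiPSCs and 140, 136 and 150 in D150-ROs, a log2 fold change of 7.70 (SE 0.13, adjusted p = 1.43e-12). NRL, which directs the rod fate, went from 1.19, 1.71 and 1.15 to 238, 215 and 180 FPKM, and NR2E3, its rod partner, from 0.20, 0.16 and 0.12 to 63.0, 61.7 and 52.3. Both rod factors came late, since the D70-ROs had 3.05 and 0.617 FPKM and the D150-ROs exceeded them by 6.35 and 6.36 on the log2 scale (adjusted p = 9.28e-08 and 3.85e-08). The cone-associated receptors were already present at D70. RXRG stood at 49.8 FPKM at D70 and 65.8 at D150 (log2 difference 0.18, adjusted p = 0.167), and THRB at 32.1 and 34.0 (0.06, adjusted p = 0.715), while in hiPSCs both were below 1 FPKM. OTX2, which acts above CRX, had the highest hiPSC level of the list, at 39.4 ± 5.66 FPKM against 447 ± 24.9.

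The light-response machinery followed. Of 21 rod phototransduction genes 18 were tested, and 15 were higher and 0 lower, with a median of 6.44. Without the filter 17 of 20 were higher and the median was 5.39. GNAT1, the rod transducin subunit, measured 0.13, 0.24 and 0.27 FPKM in hiPSCs and 105, 84.1 and 68.2 in D150-ROs. PDC, the transducin-binding phosducin, reached 353, 361 and 341 FPKM from 0.65, 0.85 and 0.75, a log2 fold change of 8.5 (SE 0.13). RCVRN, the calcium sensor recoverin, went from 0.42, 0.73 and 0.54 to 257, 278 and 282 FPKM, and CNGB1, a subunit of the rod cation channel, from 0.36 ± 0.0624 to 139 ± 14.7. SAG, rod arrestin, was far lower, at 10.5, 8.43 and 6.60 FPKM in D150-ROs, and PDE6A, a catalytic subunit of the rod phosphodiesterase, at 10.8, 8.68 and 6.24.

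Of 15 cone phototransduction genes 11 were tested and 11 were higher, with a median of 7.47, and without the filter 14 of 14 with a median of 7.34. GNB3, a transducin subunit of cones and ON bipolar cells, measured 2.12, 2.63 and 3.12 FPKM in hiPSCs and 427, 429 and 488 in D150-ROs. PDE6H, the inhibitory subunit of the cone phosphodiesterase, reached 162, 206 and 289 FPKM, and ARR3, cone arrestin, 44.3, 45.6 and 65.6. GNAT2, the cone transducin subunit, reached 28.4, 34.9 and 47.6 FPKM. In D150-RO replicate 3 each of ARR3, PDE6H and GNAT2 was highest of the 3 libraries and each of the rod genes GNAT1, SAG, CNGB1 and PDE6A was lowest. For each of these genes all 3 D150-RO libraries lay far above the hiPSC libraries. The rod list as a whole did not follow this order, since RCVRN was highest in replicate 3. The summed FPKM of the rod list was 1925, 1859 and 1880 in D150-RO replicates 1 to 3, lowest in replicate 2.

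The cone visual pigments stood apart from the proteins that serve them. OPN1SW, the short-wave cone opsin, measured 0.30, 0.28 and 0.44 FPKM in D150-ROs. OPN1MW, the middle-wave opsin, measured 0.98, 1.43 and 0.99 and had no count in hiPSCs, so it was at least 21.4-fold higher. OPN1LW is nearly identical to it and was listed at 0 in all libraries, so the split of reads between them is uncertain. GRK7 and GRK1, the opsin kinases, reached 1.11 ± 0.402 and 4.95 ± 0.782 FPKM. The cone opsins were therefore far below RCVRN, PDC and GNB3 in the same libraries, on the FPKM scale.

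**Figure D4:**
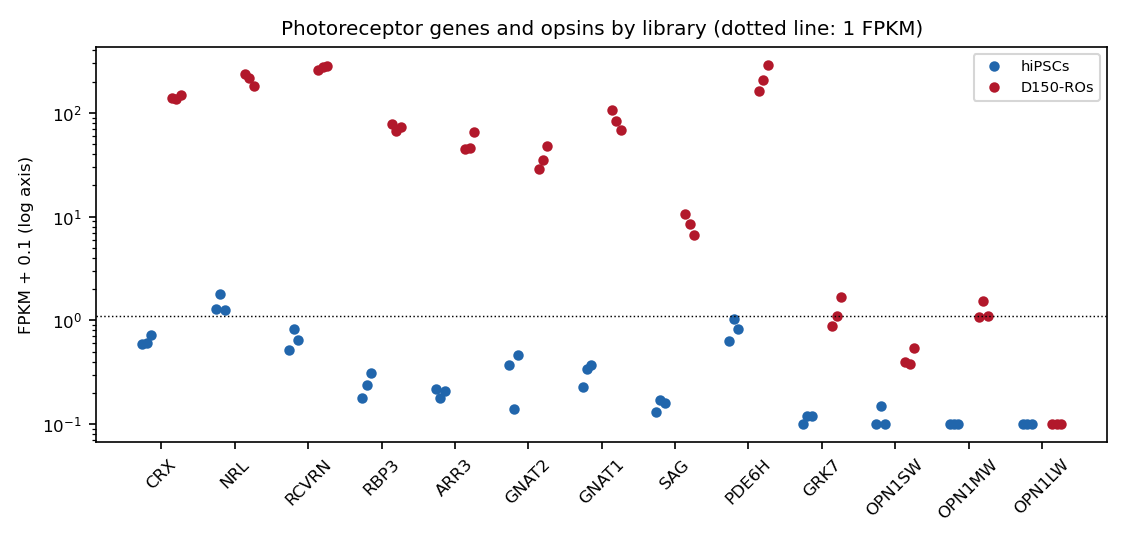
FPKM plus 0.1 on a log axis for 13 photoreceptor genes in each of 3 hiPSC libraries (blue) and 3 D150-RO libraries (red), with a dotted line at 1 FPKM. CRX, NRL, RCVRN and PDE6H lie above 100 FPKM in D150-ROs, while OPN1SW and OPN1MW lie near or below the line and OPN1LW is listed at 0 in both groups.

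Genes of the outer segment and its matrix were present at high levels. Of 25 listed genes 22 were tested and 22 were higher, with a median of 7.09, or 6.96 with the 2 genes that had no hiPSC count set at their lower bound. Without the filter 24 of 25 were higher. PRPH2 and ABCA4, a disc rim protein and the retinal transporter of discs, measured 114, 99.4 and 109 and 114, 93.2 and 103 FPKM in D150-ROs against means of 0.677 and 0.34 in hiPSCs. IMPG1 and IMPG2, proteoglycans around the outer segments, reached 64.6 ± 1.71 and 212 ± 12.6 FPKM, and IMPG1 had stood at 0.54 in D70-ROs. RBP3, the retinoid carrier between photoreceptors and pigment epithelium, went from 0.143 ± 0.0651 to 72.6 ± 5.46 FPKM. NXNL1, which encodes a cone survival factor, had no count in hiPSCs and was at least 95.6-fold higher. CRB1, an apical polarity protein, was lower at D150 than at D70 (48.0 against 105 FPKM, log2 difference -1.40).

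Ciliary genes, many of which are used in all cells with a cilium, moved less. Of 48 genes, all tested, 32 were higher and 1 lower, with a median of 1.72. CEP290, a transition zone protein, rose from 0.463 ± 0.18 to 23.1 ± 1.91 FPKM, a log2 fold change of 5.28 (SE 0.17), and IFT88, a transport subunit, from 1.46 ± 0.372 to 22.0 ± 0.885. KIF17, a ciliary kinesin, was the lower member, from 3.89, 3.22 and 3.05 to 0.52, 0.82 and 1.01 FPKM. With the length trend removed 30 were higher and 1 lower.

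Markers of MGCs divided. Of 26 listed genes 25 were tested, and 19 were higher and 3 lower, with a median of 2.55. Without the filter 19 of 26 were higher and 4 lower, with a median of 2.47. RLBP1, the retinaldehyde-binding protein CRALBP, measured 0.05, 0.12 and 0.05 FPKM in hiPSCs and 36.9, 34.0 and 29.6 in D150-ROs, and it had been at 1.16 in D70-ROs (log2 difference between the stages 4.66, adjusted p = 1.19e-06). VIM, the intermediate filament vimentin, rose from 142 ± 18.9 to 1065 ± 76.0 FPKM, and SLC1A3, the glutamate transporter GLAST, from 6.64 ± 0.488 to 28.0 ± 0.618. RGR, a retinal G protein-coupled receptor, had 3 counts in hiPSCs and an interval of 90.7 to 1290 for its fold difference. GLUL, glutamine synthetase, was not separated by the test, at 74.1, 78.6 and 78.6 FPKM in hiPSCs and 101, 102 and 97.6 in D150-ROs, with a log2 fold change of -0.01 that became 0.35 with library totals. AQP4, the water channel of mature MGCs, lay below 1 FPKM in every library and was not tested. Without the filter its log2 fold change was -1.2 (SE 0.46, adjusted p = 0.0265 in the edgeR test).

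The lower members among the tested genes of that list are genes that hiPSCs also use. APOE, apolipoprotein E, measured 568, 573 and 511 FPKM in hiPSCs and 11.5, 15.2 and 14.2 in D150-ROs, with 94.5 at D70, a log2 fold change of -5.71 (SE 0.13, adjusted p = 3.83e-12). CD9, a tetraspanin, went from 184 ± 14.3 to 42.7 ± 5.43 FPKM, and CYP26A1, which degrades retinoic acid, from 6.19 ± 1.23 to 1.19 ± 0.137.

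Interneuron markers were gained. Of 18 bipolar genes 14 were tested, and 12 were higher and 0 lower, or 12 and 1 of 18 without the filter. CABP5, a calcium-binding protein of bipolar cells, measured 0.47, 0.63 and 0.58 FPKM in hiPSCs and 222, 212 and 186 in D150-ROs. VSX1, a factor of cone bipolar cells, reached 20.4 ± 1.72 FPKM and GRM6, the glutamate receptor of ON bipolar cells, 4.97 ± 0.806, while TRPM1, the channel that this receptor gates, lay below 0.2 FPKM in all libraries of both groups. Of 21 amacrine and horizontal genes 13 were tested, and 11 were higher and 0 lower, or 14 and 0 of 20 without the filter. PROX1, a factor of both horizontal and amacrine cells, rose from 0.227 ± 0.0702 to 16.2 ± 1.59 FPKM, and GAD1, which makes GABA, from 1.17 ± 0.261 to 11.2 ± 3.09. TFAP2A, an amacrine factor, varied among the D150-RO libraries, at 27.8, 33.1 and 11.6 FPKM.

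Ganglion cell markers were mixed, and the direction of their median depended on the filter. Of 18 listed genes 12 were tested, and 5 were higher and 7 lower, with a median of -2.43. Without the filter on low values 10 of 18 were higher and 7 lower, and the median was 1.92. RBPMS, an RNA-binding protein used to mark ganglion cells, measured 159, 156 and 167 FPKM in hiPSCs and 2.43, 3.10 and 3.16 in D150-ROs, and its paralog RBPMS2 fell by 6.23 on the log2 scale. NEFL and NEFM, neurofilament subunits, fell from 19.6 ± 2.52 to 1.24 ± 0.522 and from 16.6 ± 1.29 to 2.27 ± 0.206 FPKM. Factors of ganglion cell birth were higher than in hiPSCs yet far below their D70 level. ATOH7 measured 0.477, 69.6 and 3.12 FPKM on average in hiPSCs, D70-ROs and D150-ROs, ISL1 0.0667, 20.8 and 2.07, and POU4F2 0.0333, 22.1 and 0.73. The D150 values lay below the D70 values by 4.70, 3.55 and 5.12 on the log2 scale (adjusted p = 1.35e-07, 2.63e-06 and 4.18e-07).

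Synaptic genes were higher for the most part. Of 35 vesicle and ribbon genes 33 were tested, and 25 were higher and 1 lower, with a median of 2.48. SYP, synaptophysin, measured 7.03, 7.74 and 6.48 FPKM in hiPSCs and 147, 132 and 151 in D150-ROs. CPLX4, the complexin of photoreceptor and bipolar ribbon synapses, went from 0.18, 0.27 and 0.12 to 72.8, 81.7 and 96.4 FPKM, the largest fitted rise of the list (log2 fold change 8.41). CACNA1F, the calcium channel of photoreceptor terminals, rose by 6.10 on the log2 scale and came late, from 0.557 FPKM at D70 to 24.4 at D150. SYN3, a synapsin, was the lower member, from 4.30 ± 0.375 to 0.803 ± 0.218 FPKM. Of 40 genes for glutamate, GABA and glycine receptors 25 were tested, and 15 were higher and 4 lower. GRIA2, an AMPA receptor subunit, had 3 counts in hiPSCs and an interval of 132 to 1880 for its fold difference, whereas GRM4, a metabotropic receptor, fell from 23.8 ± 3.20 to 2.17 ± 0.518 FPKM and GABRA5, a GABA receptor subunit, from 8.13 ± 1.99 to 0.44 ± 0.271.

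Of 30 neuronal cytoskeleton genes 15 were higher and 5 lower, with a median of 0.78, or 14 and 7 with the length trend removed. Over all tested genes 58.8% were called. STMN2, a microtubule regulator of growing axons, averaged 2.68 FPKM in hiPSCs and 52.7 in D150-ROs with 397 at D70, and its D150 level lay 3.19 below the D70 level on the log2 scale. TUBB3, the neuronal tubulin, held 7.39%, 32.2% and 26.4% of the summed FPKM with TUBB over the same groups.

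Regulators of splicing and chromatin changed in part, with calls in both lists about as frequent as the 58.8% over all tested genes. Over all tested genes 29.8% were higher and 29.0% lower. Of 28 splicing regulators 26 were tested, and 12 were higher and 4 lower, or 9 and 6 with the length trend removed. PTBP1, the repressor of neuronal exons, fell from 376 ± 26.5 to 67.0 ± 1.96 FPKM while its neuronal paralog PTBP2 rose from 9.94 ± 2.49 to 45.2 ± 1.04. The share of PTBP2 in the pair went from 2.61% to 23.0% at D70 and 40.3% at D150. SRRM4, which promotes neuronal microexons, rose from 0.58 to 38.8 FPKM on average, and CELF6 by 8.0 on the log2 scale. Of 15 subunits of the BAF chromatin remodelling complex 6 were higher and 3 lower, or 4 and 3 with the length trend removed. ACTL6B, the neuronal actin-like subunit, went from 1.57% to 23.8% of the summed FPKM with ACTL6A, and DPF3 rose by 7.00 on the log2 scale. DPF1, another subunit tied to neurons, was not called (log2 fold change 0.04) and was highest at D70 with 21.9% of the pair with PHF10, against 14.1% and 12.7%.

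**Figure D5:**
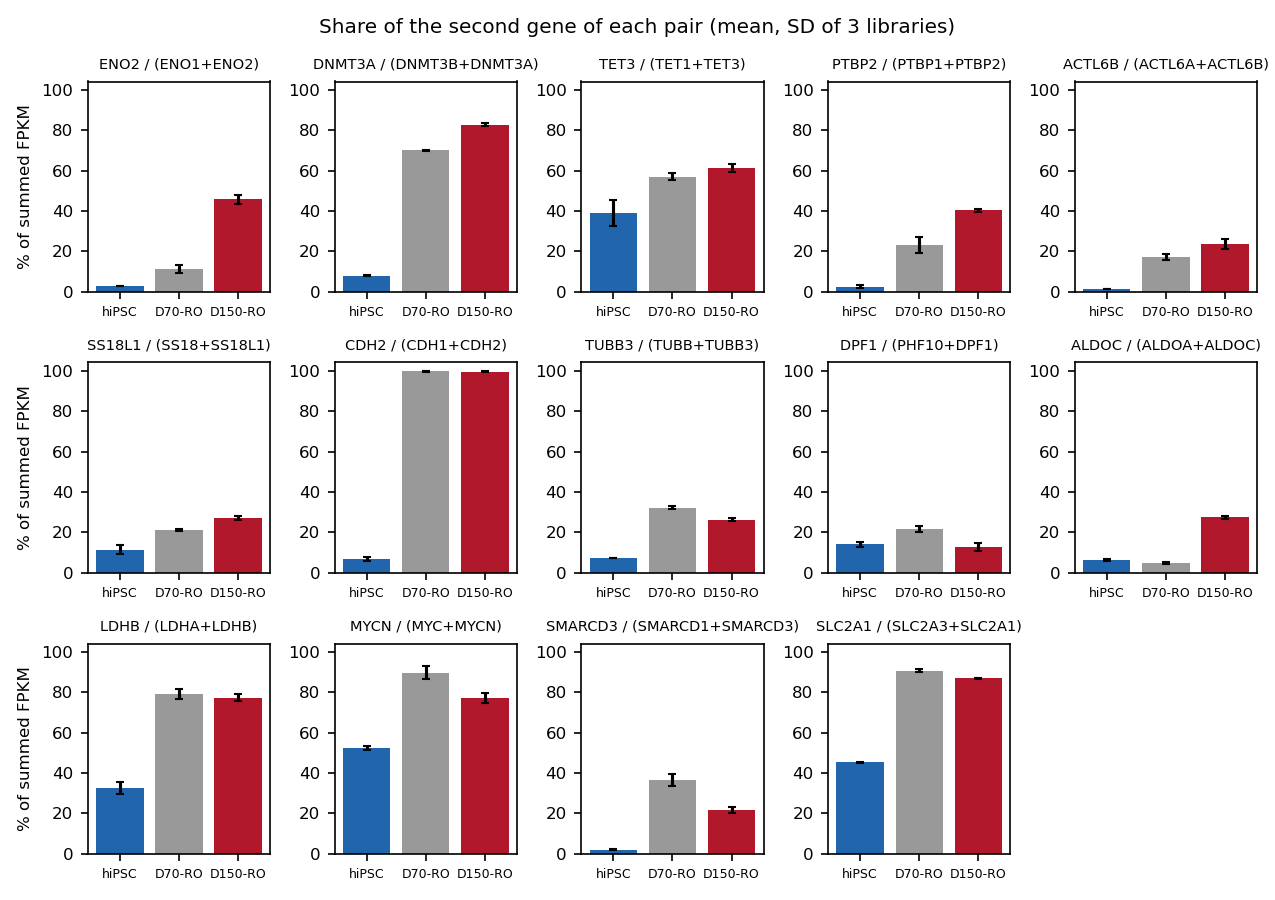
Share in percent of the summed FPKM of a pair of related genes that belongs to the gene written before the slash in each panel title, as the mean of 3 libraries with its SD, in hiPSCs (blue), D70-ROs (grey) and D150-ROs (red). DNMT3A, ENO2, PTBP2 and CDH2 hold larger shares in D150-ROs than in hiPSCs, while DPF1 does not.

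Genes of retinoid handling and antigen presentation moved in part, beside calls for 58.8% of all tested genes. Of 22 retinoid genes 19 were tested, and 9 were higher and 4 lower. RARB, a retinoic acid receptor, rose by 6.11 on the log2 scale and DHRS3, a retinal reductase, fell by 2.16. CRABP1, a retinoic acid carrier, averaged 379 FPKM in hiPSCs and 515 in D150-ROs with 3642 at D70, so its log2 fold change against hiPSCs was 0.08 although it passed through a far higher level. Of 16 genes of MHC class I presentation 13 were tested, and 8 were lower and 0 higher. HLA-C, a classical class I heavy chain, fell by 2.15 on the log2 scale, while B2M, the common light chain, measured 62.9 and 101 FPKM on average and was not called. With the length trend removed B2M came to 1.33 on the log2 scale and passed, with its adjusted p kept from the unshifted fit. The HLA genes are similar to each other and highly variable, so their reads may be misassigned.

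Lists for cells outside the NR layers were read in the same way. Of 14 pigment epithelium genes 8 were tested, with 6 higher and 2 lower, and the summed FPKM of the list was 153 to 169 in hiPSCs and 146 to 157 in D150-ROs. Its defining genes RPE65, TYR and TYRP1 lay below 0.2 FPKM in every hiPSC and D150-RO library. PMEL, a melanosome protein, measured 127 ± 9.20 FPKM in hiPSCs and 1.29 ± 0.02 in D150-ROs, and SERPINF1, a secreted factor, rose from 23.6 ± 1.52 to 108 ± 6.73. Of 13 microglia genes only AIF1 was tested, which was lower, and the list summed to between 0.73 and 1.20 FPKM in D150-ROs. Without the filter 2 of 12 microglia genes were higher and 4 lower. The forebrain list summed to between 9.04 and 9.34 FPKM in D150-ROs, with 2 of its 3 tested members higher and 1 lower. Without the filter 4 of 11 forebrain genes were higher and 3 lower. Of 4 tested astrocyte and optic stalk genes 2 were higher and 1 lower, and the list summed to 6.41 to 6.76 FPKM in hiPSCs and 23.0 to 25.8 in D150-ROs. SLC1A2, a glutamate transporter that retinal neurons also express, rose from 0.237 ± 0.106 to 18.4 ± 1.24 FPKM and PAX2, a factor of the optic stalk, to 3.57 ± 0.478, while GFAP, the astrocyte filament, averaged 1.02 and 1.78 FPKM and was not called. The mesenchyme list had 2 higher and 4 lower of 6 tested, with COL1A1 down from 18.7 ± 0.528 to 2.77 ± 0.09 FPKM. KDR, a receptor of vascular endothelium that retinal cells also express, rose from 23.0 ± 2.42 to 89.2 ± 3.97 FPKM, a call lost at 0.63 on the log2 scale with the length trend removed, while PECAM1 lay below 0.2 FPKM throughout, and the other 3 tested endothelial genes were lower. Of 3 tested lens and cornea genes 0 were higher and 1 lower, and of 3 tested germ layer genes 1 was higher and 2 lower. Without the filter 3 of 13 lens and cornea genes were higher and 1 lower, with a median of 1.41. For the germ layer list 2 of 12 were then higher and 6 lower. Among 10 tested early response genes 3 were higher and 3 lower, shares close to those over all tested genes. JUN went up from 8.05 ± 0.807 to 62.5 ± 4.14 FPKM and FOS down from 22.7 ± 2.19 to 2.61 ± 0.27. The part of such cells or of handling in the results above was not tested.

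The 10 largest rises among genes at 10 FPKM or more in D150-ROs were led by ST6GALNAC2, a sialyltransferase, which had 3 counts in hiPSCs and an interval of 210 to 2990 for its fold difference. INSM2, a zinc finger factor, measured 0.02, 0.02 and 0.05 FPKM in hiPSCs and 21.6, 19.0 and 21.3 in D150-ROs, and TRIM67, a ubiquitin ligase of neurons, 0.05, 0.02 and 0.02 and then 19.2, 16.5 and 16.2. LRRTM2, a postsynaptic adhesion protein, rose by 8.53 on the log2 scale. The remaining members of the 10 are VSX1, RBP3, ARR3, CNGA3, RCVRN and GNAT1, all of which belong to retinal lists described above.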

How the data were processed

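Poly(A) RNA of 3 hiPSC, 3 D70-RO and 3 D150-RO libraries was sequenced by the study, and its methods name HISAT2, StringTie and RSEM, whose versions and genome build are not given in the sources used here. The authors deposited expected counts of RSEM, which were rounded to whole numbers, and FPKM values, which are normalized for length and depth. edgeR 4.0.16 with limma 3.58.1 and DESeq2 1.42.0 were run in R 4.3.3. Genes that reached 1 FPKM in 3 or more of the 6 libraries entered the quasi-likelihood test with TMM factors, Benjamini-Hochberg adjustment over all tested genes and a 2-fold limit. SE is the fold change divided by the square root of F. Levels are the mean ± SD of FPKM. Counting intervals are exact at 95%, cover counting error only, and a count of 0 was set at 3 counts. On simulated counts for 13344 genes with 200 changed 4-fold, edgeR recovered 100% of the changed genes by adjusted p and made 4 false calls. With so few changed genes the simulation cannot test the scaling of data in which 58.8% were called.

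The gene lists were chosen with earlier results of these data known. For each list the text names its most abundant member and up to 3 called members with the largest change in each direction, besides the 10 largest rises and falls over all genes, the 5 most abundant genes of each group and 15 pairs of related genes. Some 57 further genes, and untested list members such as OPN1SW, were named after their values were seen. Other tables of the series, which hold Müller glia cultures, were not used. Alternatives changed the filter, scaling, test, tool, length trend and replicates. Promoters are from RefSeq. Some genes of the lists are not reported here by name.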

Additional observations from a re-analysis of the deposited data

How the results depend on the processing

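Library totals in place of TMM gave 7914 genes, 4867 higher and 3047 lower, and limma on log2(FPKM + 1) gave 4249 higher and 2822 lower. Removing the length trend, with the adjusted p of the unshifted fit kept, left 7078 genes (3491 higher, 3587 lower), and using no filter gave 9574. Leaving out 1 library at a time gave 7707 to 7938 genes. Libraries with the same number shared almost no deviation from their group means (correlations over genes of 0.015, -0.014 and 0.073). That check cannot show that they were unpaired, since the groups need not deviate in the same genes. The replicate block gave 7845 genes. All 51 alternative counts of genes stayed within 1.5 times the reported count. Of 4573 values of named genes 4488 kept direction and call, 38 lost the call, 10 gained it and 37 changed sign, and the cause was not tested. Of 1394 list counts 56 moved by over 1.5 times.

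With the length trend removed TET3 came to -0.46, DNMT3A to -0.45, TET1 to -1.51, MT-CO1 to 0.15, MT-CO3 to 0.79, TUBB3 to 0.02, ALDOC to 0.0 and HES1 to 0.27. With library totals MT-CO3 came to 0.0, SS18 to 0.21, CENPE to 0.09, GLUL to 0.35 and HES1 to 0.04. With limma on log2(FPKM + 1) and with 0.1 added, DNMT3A (-0.18), MT-CO3 (0.03), SS18 (0.13) and HES1 (0.02) agreed to these digits, CENPE came to 0.06 and 0.11, and GLUL to 0.37 and 0.38. TET1 came to -0.0 with filterByExpr, with upper-quartile scaling and with all 9 libraries. Leaving out 1 library at a time gave -0.02 to 0.21 for CRABP1, -0.05 to 0.44 for MT-ATP6, -0.08 to 0.13 for TET1, -0.13 to 0.16 for DPF1 and -0.04 to 0.02 for GLUL. Genes under 1 FPKM such as OPN1SW rest on few reads.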

Other observations

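Some genes had a level in D70-ROs outside the range between hiPSCs and D150-ROs. EEF1A1, the translation elongation factor, averaged 14802 FPKM in D70-ROs, above the 7578 of hiPSCs and the 3812 of D150-ROs. CCND1, a cyclin of the G1 phase, was at 102 FPKM in D70-ROs and was not called between hiPSCs and D150-ROs (log2 fold change -0.82). These are values of 3 libraries a stage, and the difference between the culture conditions of the stages was not tested.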
